A study of Mus musculus with 8 samples.

Results

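The 10 genes described here encode the carnitine shuttle and the core enzymes of mitochondrial fatty acid beta-oxidation: Cpt1a, Slc25a20, Cpt2, Acadvl, Acadl, Acadm, Acads, Hadha, Hadhb and Hadh. They were chosen by name for their place in the pathway, and 10 of 10 were found among the 25078 genes of the deposited count table. All 10 passed the filter on low counts that left 14438 genes for testing. Their messenger RNA was compared between livers of 5 wild-type mice and of 3 mice titled Het, here called het-labelled, whose genotype is given as Midn hemizygotes. All 8 were C57/BL6 males kept for 25 weeks on a diet high in fat, fructose and cholesterol, so the controls carry the diet too. Per the submitters' design text, the Midn knockout was global and homozygous knockouts mostly died as embryos. Midn encodes midnolin, a nuclear protein that carries short-lived proteins to the proteasome. The sources used here do not give the age of the mice or the deleted part of the gene.

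Long-chain fatty acids reach the mitochondrial matrix through the carnitine shuttle. There each turn of beta-oxidation shortens the chain by an acetyl-CoA through dehydrogenation, hydration, a further dehydrogenation and thiolytic cleavage. In liver the acetyl-CoA feeds ketone body synthesis, and the nuclear receptor PPAR-alpha is known as a main activator of these genes.

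Several features of the libraries touch the results. Rpph1, the RNA of ribonuclease P, which is not polyadenylated, took 0.673 to 1.06% of counts in wild-type livers 2, 4 and 5, but 0.304 to 0.331% in wild-type livers 1 and 3 and 0.229 to 0.399% in the het-labelled livers. Results are therefore also given against wild-type livers 1 and 3 alone and against wild-type livers 2, 4 and 5 alone. Midn itself did not separate the labels over all 8 livers, with a log2 fold change of 0.00 (edgeR adjusted p = 0.994). It was −0.54 against wild-type livers 1 and 3 (unadjusted p = 0.0201, adjusted p = 0.104) and 0.40 against 2, 4 and 5 (unadjusted p = 0.071, adjusted p = 0.167), so directions below are those of the livers labelled Het. Total counts per library ran from 17508221 to 24916239.

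The sequence before the start site of 4 of the genes is shown because 3 of them (Cpt1a, Acadm and Acadvl) carry AGGTCA, the core element that PPAR-alpha and other nuclear receptors are known to bind, and because Hadhb shares its upstream region with Hadha. Each line is the 250 bases before the RefSeq start site in GRCm38.p6, read 5' to 3' on the gene's strand: Cpt1a at chr19:3323051-3323300 (plus strand), Acadm at chr3:153944644-153944893 (minus), Acadvl at chr11:70015429-70015678 (minus) and Hadhb at chr5:30155003-30155252 (plus). Capitals mark AGGTCA or, where it lies on the opposite strand, TGACCT; in the Hadhb line they mark the 228 bases that also lie in the 250 bases before Hadha.
Cpt1a: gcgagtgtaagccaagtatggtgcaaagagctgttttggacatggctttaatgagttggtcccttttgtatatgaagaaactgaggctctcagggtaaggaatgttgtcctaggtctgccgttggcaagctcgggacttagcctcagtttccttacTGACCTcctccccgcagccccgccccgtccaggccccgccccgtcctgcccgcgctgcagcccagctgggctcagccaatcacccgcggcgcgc
Acadm: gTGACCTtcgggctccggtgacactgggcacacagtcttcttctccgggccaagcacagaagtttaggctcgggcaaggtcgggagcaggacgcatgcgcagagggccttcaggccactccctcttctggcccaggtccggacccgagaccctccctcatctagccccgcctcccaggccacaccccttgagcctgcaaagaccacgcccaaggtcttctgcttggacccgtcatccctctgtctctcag
Acadvl: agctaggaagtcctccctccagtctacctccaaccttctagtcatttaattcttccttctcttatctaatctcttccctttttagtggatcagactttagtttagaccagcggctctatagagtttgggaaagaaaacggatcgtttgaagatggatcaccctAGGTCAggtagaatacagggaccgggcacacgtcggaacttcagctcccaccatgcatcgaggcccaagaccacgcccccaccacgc
Hadhb: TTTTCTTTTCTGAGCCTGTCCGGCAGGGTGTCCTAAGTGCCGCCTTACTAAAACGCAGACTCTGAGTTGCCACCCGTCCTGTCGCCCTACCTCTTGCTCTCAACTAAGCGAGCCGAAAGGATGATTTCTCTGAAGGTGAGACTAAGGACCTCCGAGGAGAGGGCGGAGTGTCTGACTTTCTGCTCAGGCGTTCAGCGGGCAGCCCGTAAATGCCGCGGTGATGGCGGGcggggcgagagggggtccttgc
The element begins 94 bases before the start of Cpt1a and 249 before that of Acadm, on the opposite strand in both, and 87 before that of Acadvl on the same strand.

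RefSeq windows of 250 bases before to 50 after the start were matched for 10 of 10 genes and searched on both strands. AGGTCA was in 3 of the 10 windows, against 16.3% of 32851 windows of all genes. The DR1 arrangement, AGGTCA repeated after 1 base, was in 0 of the 10 and in 0.0396% of all windows, and CACGTG in 0 of the 10 and 7.15% of all. CCAAT was in 2 (Cpt1a and Hadh) against 37.4% of all windows, and GGGCGG in 8 against 35.7%. The 8 include both Hadha and Hadhb, whose windows share 228 bases that hold a GGGCGG, so that site was counted for both genes. These matches describe letters in a short window.

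Per length, all 10 transcripts were abundant. By mean RPKM they lay between the 89.8th percentile (Cpt2) and the 97.8th (Hadh) of tested genes. In wild type the order of RPKM levels was Hadh (168 ± 36.7, SD, n = 5), Cpt1a (119.8 ± 34.8), Acadm (116 ± 10.9), Hadhb (111 ± 35.6), Acadvl (102 ± 9.12), Hadha (97.7 ± 11.2), Acadl (73.5 ± 5.24), Acads (47.8 ± 5.96), Slc25a20 (40.04 ± 6.13) and Cpt2 (33.5 ± 2.52). The wild-type ranges of neighbours in this order overlapped except between Hadha and Acadl and between Acadl and Acads, so the ranges do not part the other neighbours. Liver by liver, Acads was nevertheless above Slc25a20, and Slc25a20 above Cpt2, in 5 of 5 wild-type livers. In the het-labelled livers Hadh was again highest (207 ± 46.4 RPKM, SD, n = 3), followed by Cpt1a (187 ± 33.0), and Cpt2 lowest, while Hadhb (100.4 ± 11.2) lay level with Acadl (100.6 ± 11.3).

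Across genotype, 8 of the 10 transcripts were higher in the het-labelled livers at an unadjusted p under 0.05, and 0 were lower at that level. The exceptions were Hadhb and Hadh. Of all genes tested, 10.3% stood higher and 5.43% lower at the same level. After adjustment over all 14438 genes edgeR called 0 members, and 0% of all genes. DESeq2 called 0 members too, and 0.694% of all genes as higher; the smallest adjusted p of a member by DESeq2 was 0.0539, for Slc25a20. The median log2 fold change of the 10 was 0.46, against 0.00 over all genes. The count of 8 became 2 without het-labelled liver 3, 3 without het-labelled liver 1, 4 without wild-type liver 2 and 5 without wild-type liver 3, and 1 when libraries were scaled by total counts alone, where the median of all genes was −0.18 and that of the members 0.27. Fold changes below are edgeR's, het-labelled minus wild type on the log2 scale, and CPM are counts scaled by TMM and by library total. Gene positions are those of the deposited tables, on mm10.

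**Figure D1:**
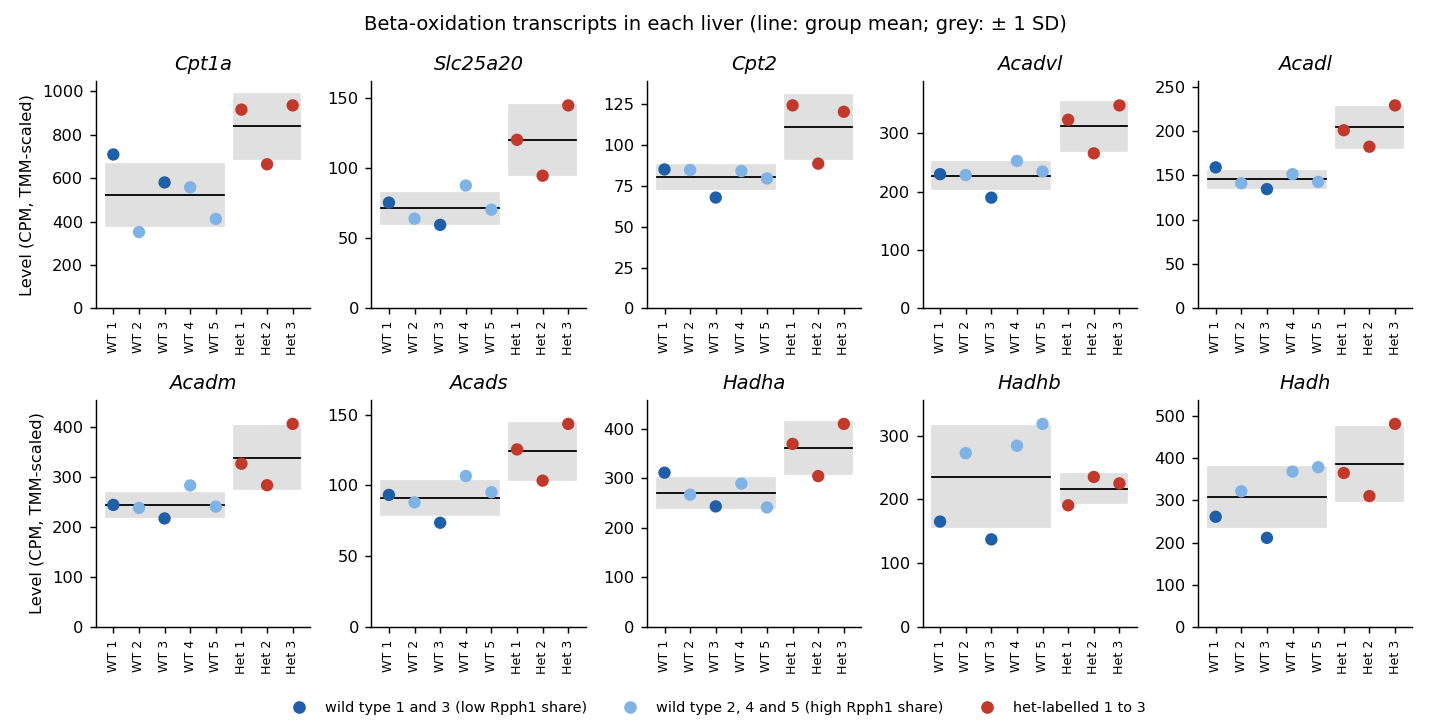
Level of each of the 10 transcripts in each liver in TMM-scaled CPM (y axis, from 0), with the group mean as a line and 1 SD as a grey band (n = 5 wild type, n = 3 het-labelled). In 8 panels het-labelled liver 3 is the highest point, whereas Hadhb is highest in wild-type liver 5 and Cpt2 in het-labelled liver 1.

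Carnitine palmitoyltransferase 1A, encoded by Cpt1a (chr19:3323301-3385733, plus strand), attaches carnitine to long-chain acyl groups at the outer membrane and is the main control point of entry in liver. Wild-type livers 1 to 5 had 709, 352, 580.4, 558 and 412 CPM, and het-labelled livers 1 to 3 had 916, 664 and 935 CPM. Het-labelled livers 1 and 3 lay above every wild-type liver, whereas liver 2 lay below wild-type liver 1. The wild-type mean was 522 ± 142 CPM (SD, n = 5) and the het-labelled mean 838 ± 151 CPM (SD, n = 3), with a log2 fold change of 0.68 (SE 0.26, 95% interval 0.11 to 1.26; edgeR unadjusted p = 0.0253, adjusted p = 0.275). The size of the Cpt1a difference depended on the wild-type livers used: it was 0.31 against wild-type livers 1 and 3 (edgeR adjusted p = 0.358) and 0.88 against 2, 4 and 5 (adjusted p = 0.0368).

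Slc25a20 (chr9:108662136-108684642, plus strand) encodes the carrier that swaps acylcarnitine for carnitine across the inner membrane. Its wild-type values were 75.3, 63.9, 59.5, 87.5 and 70.3 CPM, and its het-labelled values 120.01, 94.4 and 144.5 CPM. Every het-labelled liver lay above every wild-type liver. Slc25a20 had the largest difference of the 10 over all 8 livers, with means of 71.3 ± 10.9 and 119.6 ± 25.0 CPM and a log2 fold change of 0.75 (SE 0.18; edgeR unadjusted p = 0.0024, adjusted p = 0.259). The difference was 0.76 against wild-type livers 1 and 3 (adjusted p = 0.0827) and 0.65 against 2, 4 and 5 (adjusted p = 0.0452).

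Carnitine palmitoyltransferase 2, the product of Cpt2 (chr4:107903982-107923589, minus strand), hands the acyl group back to coenzyme A in the matrix. The wild-type livers had 85.1, 84.7, 67.9, 84.1 and 79.5 CPM, and the het-labelled livers 124.3, 88.6 and 120.4 CPM. On the TMM scale all 3 het-labelled values were above the wild-type ones, that of liver 2 by a small margin. Without the TMM factors, wild-type liver 1 lay above het-labelled liver 2. The log2 fold change was 0.47 (SE 0.15; edgeR unadjusted p = 0.0135, adjusted p = 0.265), and it was 0.47 and 0.37 against the 2 sets of wild-type livers.

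Ratios of deposited RPKM within a library do not depend on how libraries are scaled. The Slc25a20 to Cpt2 ratio was 1.19 ± 0.137 in wild type (SD, n = 5) and 1.45 ± 0.158 in het-labelled livers (SD, n = 3; two-sided exact permutation p = 0.0714, adjusted p = 0.5 over 7 such measures). The Cpt1a to Cpt2 ratio ran from 2.27 to 4.67 in wild type and from 4.03 to 4.25 in het-labelled livers (exact permutation p = 0.5, adjusted p = 0.964). The smallest p that 56 assignments of livers allow is 0.0357, and neither ratio reached 0.05. Wild-type livers 1 and 3 had the highest Cpt1a to Cpt2 ratios of all 8 (4.55 and 4.67), and wild-type livers 2 and 5 the lowest (2.27 and 2.83).

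The 4 acyl-CoA dehydrogenases catalyse the first step of the cycle on chains of different length. Acadvl serves very long chains, Acadl long, Acadm medium and Acads short chains.

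Acadvl (chr11:70010183-70015428, minus strand) had 230.1, 229, 189.9, 253 and 235 CPM in wild-type livers 1 to 5 and 323, 266 and 348 CPM in het-labelled livers 1 to 3. The groups did not overlap. Its log2 fold change was 0.46 (SE 0.16; edgeR unadjusted p = 0.0192, adjusted p = 0.268).

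Acadl (chr1:66830839-66863309, minus strand) had 159, 141, 135, 152 and 143 CPM in wild type and 201, 182 and 229 CPM in het-labelled livers. On the TMM scale the groups were apart here too, and the wild-type livers were close together, at 146 ± 9.56 CPM (SD, n = 5). TPM are counts per exon length scaled to a fixed library sum. By TPM, wild type had 174 ± 44.2 (SD, n = 5) and the het-labelled livers 218 ± 10.7 (SD, n = 3). The wild-type livers were thus less close together on that scale. The log2 fold change of Acadl was 0.49 (SE 0.14, edgeR unadjusted p = 0.00679, adjusted p = 0.259). It was 0.44 against wild-type livers 2, 4 and 5 (adjusted p = 0.0494) and 0.41 against 1 and 3 (adjusted p = 0.134). Without the TMM factors it was 0.29 (edgeR unadjusted p = 0.0921), and wild-type liver 1 lay above het-labelled liver 1.

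Acadm (chr3:153922353-153944643, minus strand), whose human counterpart is the gene of the most common inherited beta-oxidation defect, had 244.2, 238, 217, 283.2 and 241 CPM in wild type and 327, 283.5 and 406 CPM in het-labelled livers. The groups were apart only just, since wild-type liver 4 and het-labelled liver 2 were nearly equal. The log2 fold change was 0.47 (SE 0.17; edgeR unadjusted p = 0.0222, adjusted p = 0.273).

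Acads (chr5:115110299-115119346, minus strand) had 93.3, 88.0, 73.6, 106.6 and 95.1 CPM in wild type and 125, 103.3 and 143 CPM in het-labelled livers. Het-labelled liver 2 lay below wild-type liver 4, so the groups overlapped on the TMM scale. Without the TMM factors they were apart. The log2 fold change was 0.44 (SE 0.16; edgeR unadjusted p = 0.0241, adjusted p = 0.273).

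These 4 transcripts kept nearly the same proportions in every liver. Of their summed RPKM, Acadm made up 34.3 ± 0.919% in wild type (SD, n = 5) and 34.3 ± 1.36% in het-labelled livers (SD, n = 3), and Acadvl 29.97 ± 0.817% and 29.9 ± 1.07%. Acadl had 21.7 ± 1.28% and 21.995 ± 0.847%, and Acads 14.1 ± 0.651% and 13.8 ± 0.272%. The exact permutation p ran from 0.607 for Acads to 0.964 for Acadvl and Acadm, and the adjusted p was 0.964 for all 4. The widest wild-type range was that of Acadl, from 20.1% in wild-type liver 4 to 23.0% in wild-type liver 1. Its share was 23.0% in wild-type livers 1 and 3 alike, and 20.1 to 21.4% in wild-type livers 2, 4 and 5. For Acadvl it was 29.6 and 28.9% in wild-type livers 1 and 3, and 29.8 to 30.8% in 2, 4 and 5. The Acadm and Acads shares did not part these sets.

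**Figure D2:**
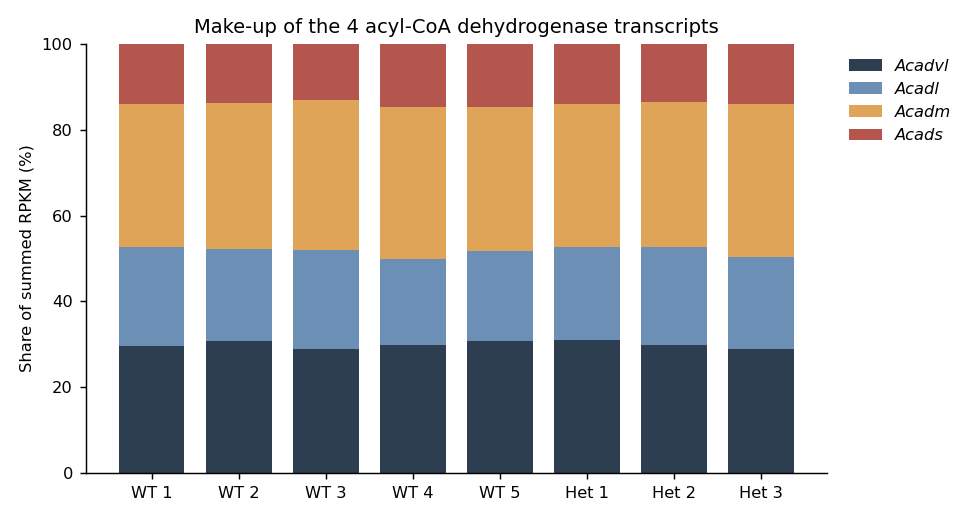
Share of each of the 4 acyl-CoA dehydrogenase transcripts in their summed RPKM (y axis, percent) for each liver (x axis). The bars have nearly the same make-up in all 8 livers, with Acadm the largest part (34.3% on average in wild type) and Acads the smallest (14.1%).

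Hadha and Hadhb encode the alpha and beta subunits of the mitochondrial trifunctional protein, which carries out the last 3 steps of the cycle on long chains. The alpha subunit holds the hydratase and the 3-hydroxyacyl-CoA dehydrogenase, the beta subunit the thiolase. The genes lie head to head on chromosome 5, Hadha at chr5:30119423-30154980 on the minus strand and Hadhb at chr5:30155253-30184593 on the plus strand, with start sites 273 bases apart. The capitals in the Hadhb line above lie between these start sites. Their transcripts followed different patterns over the 8 livers.

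Hadha had 311, 267, 243, 289 and 241 CPM in wild-type livers 1 to 5, and 369, 304 and 409.8 CPM in het-labelled livers 1 to 3. Het-labelled liver 2 lay just under wild-type liver 1, and the other two above all wild-type livers. The log2 fold change was 0.42 (SE 0.17; edgeR unadjusted p = 0.0351, adjusted p = 0.293), with 0.32 against wild-type livers 1 and 3 and 0.39 against 2, 4 and 5.

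Hadhb had 165, 273, 137, 284 and 318 CPM in wild type, and 191, 235 and 225 CPM in het-labelled livers. The het-labelled values lay in the gap between wild-type livers 1 and 3, which were lowest, and wild-type livers 2, 4 and 5, which were highest. Over all 8 livers the log2 fold change was −0.12 (SE 0.29, 95% interval −0.77 to 0.53; edgeR unadjusted p = 0.691, adjusted p = 0.835). It was 0.46 against wild-type livers 1 and 3 (unadjusted p = 0.0315, adjusted p = 0.127) and −0.47 against 2, 4 and 5 (unadjusted p = 0.013, adjusted p = 0.0591). It was also 0.02 without wild-type liver 5. The sign of the Hadhb difference thus depended on the wild-type livers used.

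The Hadha to Hadhb ratio of RPKM was 1.44 and 1.35 in wild-type livers 1 and 3, and 0.748, 0.778 and 0.579 in wild-type livers 2, 4 and 5. The het-labelled livers had 1.48, 0.989 and 1.39. Within wild type the ratio was therefore higher where the Rpph1 share was low, and het-labelled livers 1 and 3, with Rpph1 shares of 0.229 and 0.288%, had ratios near those of wild-type livers 1 and 3. The group means of 0.979 ± 0.389 (SD, n = 5) and 1.29 ± 0.262 (SD, n = 3) differed by less than the wild-type spread (exact permutation p = 0.214, adjusted p = 0.75). The part of the Rpph1 share in the ratio was not tested.

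**Figure D3:**
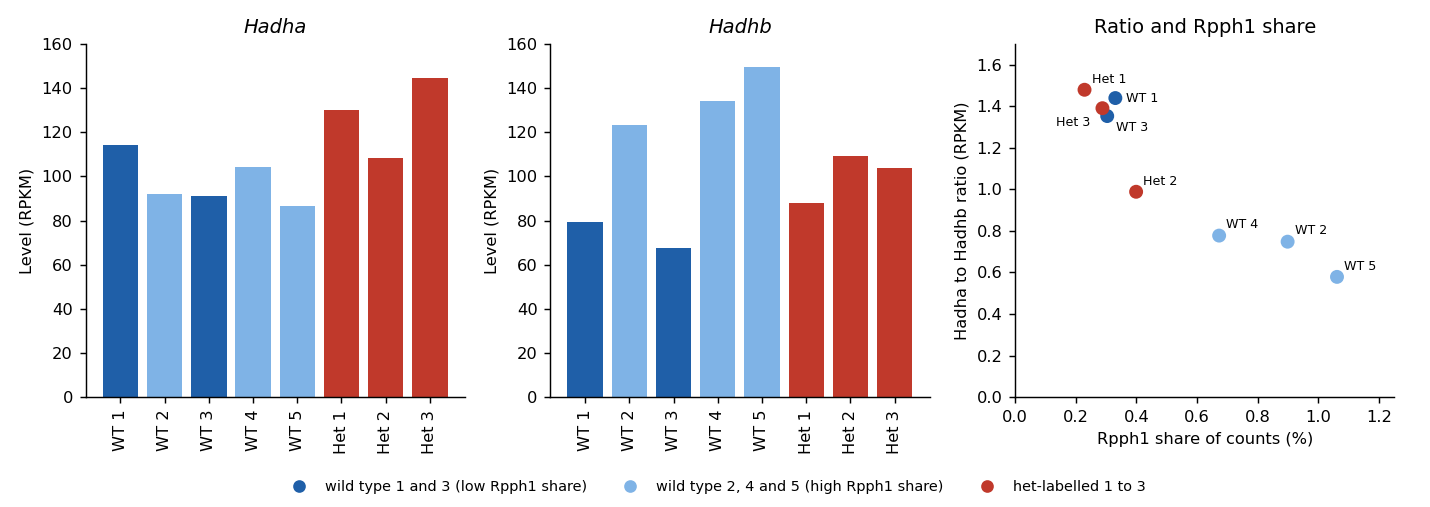
RPKM of Hadha and Hadhb in each liver (bars, from 0) and their ratio against the share of counts taken by Rpph1 (points, 1 per liver). The ratio is 1.35 or more in wild-type livers 1 and 3 and 0.778 or less in wild-type livers 2, 4 and 5, while the 3 het-labelled livers run from 0.989 to 1.48.

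Hadh (chr3:131233420-131272101, minus strand) encodes the 3-hydroxyacyl-CoA dehydrogenase of medium and short chains. It had 261, 321, 211, 368 and 378 CPM in wild type and 365, 310.01 and 481 CPM in het-labelled livers. Only het-labelled liver 3 lay above the wild-type range, and wild-type livers 1 and 3 were again the lowest. The log2 fold change was 0.32 (SE 0.24; edgeR unadjusted p = 0.211, adjusted p = 0.498), with 0.64 against wild-type livers 1 and 3 (adjusted p = 0.121) and 0.07 against 2, 4 and 5 (adjusted p = 0.828). It was 0.14 without het-labelled liver 3 and 0.17 without wild-type liver 3.

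Against wild-type livers 1 and 3 alone, 8 of the 10 were higher at an unadjusted p under 0.05, Hadhb and Hadh now among them and Cpt1a and Hadha not, where 16.7% of all genes were. edgeR called 0 of them after adjustment, against 0.0956% of all genes. Against wild-type livers 2, 4 and 5 alone, 6 were higher and 1, Hadhb, was lower, where 18.8% of all genes were higher and 18.7% lower. After adjustment 3 were called higher, namely Cpt1a, Slc25a20 and Acadl, and 0 lower, against 8.40% and 10.5% of all genes. The median log2 fold change of the 10 was 0.48 in the former comparison and 0.37 in the latter. Both use the same 3 het-labelled livers.

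**Figure D4:**
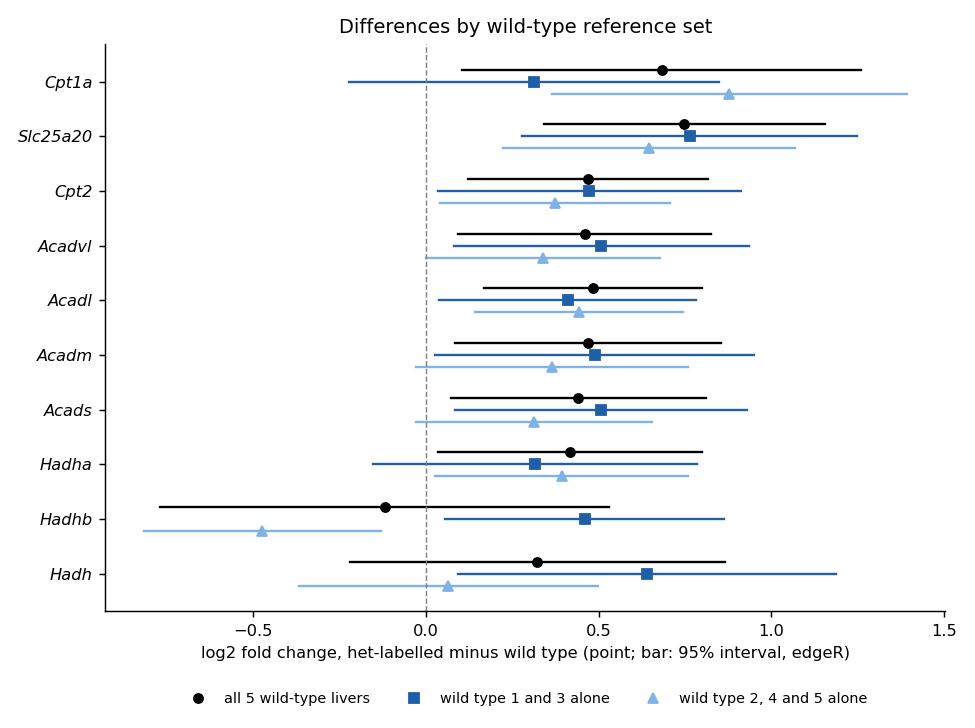
Log2 fold change of each transcript, het-labelled minus wild type, with its 95% interval from edgeR (bars), against all 5 wild-type livers, wild-type livers 1 and 3, and wild-type livers 2, 4 and 5. Slc25a20 lies at 0.65 to 0.76 in all 3 comparisons, while Hadhb goes from 0.46 to −0.47.

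Within the wild-type livers, Hadhb and Hadh were higher in each of livers 2, 4 and 5 than in 1 and 3, and Cpt1a was lower in each. Such a pattern was common, with 31.1% of all genes tested higher in each and 31.8% lower in each, so 2 and 1 of 10 are no more than the background.

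In TMM-scaled CPM every het-labelled liver lay above every wild-type liver for 5 of the 10 (Slc25a20, Cpt2, Acadvl, Acadl and Acadm), against 7.54% of all genes. With library totals alone, without the TMM factors, the groups overlapped for Cpt2 and Acadl and were apart for Acads. In the deposited RPKM the groups overlapped for Acadm, with 134.3 in wild-type liver 4 and 132.7 in het-labelled liver 2. Het-labelled liver 3 was the highest of all 8 for 8 members and wild-type liver 3 the lowest for 8. These 2 livers had the lowest (0.852) and the highest (1.27) TMM factor. The share of all genes with these patterns was not counted, and the part of the scaling in them was not tested. The mean of the 10 centred log2 levels was 0.30, 0.05 and 0.48 in het-labelled livers 1 to 3, and −0.12, −0.20, −0.41, 0.03 and −0.12 in wild-type livers 1 to 5. Het-labelled liver 2 thus lay next to wild-type liver 4, and it was at or below the wild-type maximum for 5 members, against 2 for het-labelled liver 1 and 1 for liver 3.

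By the root mean square difference of centred log2 CPM over the 8 livers, the pair most alike was Acads and Acadvl, at 0.0459. Acadm was nearest to Acads (0.0663), Cpt2 to Acadvl (0.0730) and Hadha to Acadl (0.0761). Hadhb was the farthest member from each of the other 9 except Hadh, for which Cpt1a was, and its own nearest was Hadh at 0.296. Of 8973 genes with a mean of at least 10 CPM outside the 10, those most like the mean of the members were Thtpa (0.0307), Chd1l (0.0440), Aven (0.0486), Ppm1b (0.0545) and Acaa2 (0.0548). Acaa2, the thiolase of medium and short chains, was the only one of these 5 from the pathway lists below.

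Markers of cell types were measured in the same livers. Hepatocyte markers, 7 of 8 listed found in the table, summed to between 42592 and 49924 CPM in wild type and to 75366, 44889 and 65113 CPM in het-labelled livers 1 to 3. They were thus high in the 2 het-labelled livers where the members were highest, and 2 of the 7 were higher at an unadjusted p under 0.05. The 5 markers of lipid-associated macrophages summed to 595 to 1015 CPM in wild type and to 223, 991 and 238 CPM in het-labelled livers 1 to 3, with 0 of 5 past that level. Past it were also 1 of 4 T and NK cell and 1 of 4 B cell markers, both lower. So were 2 of 6 stellate cell markers and 1 of 5 endothelial markers, all higher. Of all genes tested, 10.3% stood higher and 5.43% lower at that level. Median log2 fold changes were 0.37 for hepatocyte, 0.31 for endothelial and 0.05 for stellate cell markers, against 0.46 for the members. They were −0.25 for Kupffer cell, −0.56 for lipid-associated macrophage, −0.91 for T and NK cell and −0.65 for B cell markers. Neutrophil markers were at −0.39 and bile duct markers at −0.93. Summed Kupffer cell (5 of 5 found), neutrophil (4 of 4) and bile duct markers (5 of 5) of the het-labelled livers ran from 210.3 to 259.8, 15.5 to 39.0 and 15.8 to 48.4 CPM, against 117 to 575, 20.1 to 59.3 and 13.2 to 106 CPM in wild type. T and NK cell markers (4 of 5) summed to 2.48 to 6.40 CPM in het-labelled livers against 3.02 to 13.1, and B cell markers (4 of 4) to 2.26 to 4.79 against 5.00 to 8.33. Stellate cell markers (6 of 6, of which Hhip had a count of 0 in some livers) summed to 619 to 1122 against 811 to 969 CPM, and endothelial markers (5 of 5) to 285 to 404 against 261 to 321 CPM. In whole liver, fewer cells of a type and less RNA per cell cannot be told apart, and the part of cell make-up in the members' differences was not tested.

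Other genes of the pathway were described by list, with 59 of 60 genes tested (Cpt1b did not pass the filter). At an unadjusted p under 0.05, 21 of these stood higher and 1 lower, with a median log2 fold change of 0.32, and 0 were called by edgeR after adjustment. DESeq2 called Eci2 (adjusted p = 0.00295) and Acsl1 (adjusted p = 0.00739) among the genes named here. The shares of all genes at these levels are those given above for the 10.

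Among 7 tested genes of fatty acid entry and its control, 2 were higher and the median was 0.30. Acsl1, which activates long-chain fatty acids to acyl-CoA, had the largest difference: 680.4, 429.8, 483, 681 and 525.7 CPM in wild type, and 1520, 824 and 1440 CPM in het-labelled livers. All het-labelled livers lay above all wild-type livers, with a log2 fold change of 1.17 (SE 0.26; edgeR adjusted p = 0.259). Crat, which makes acetylcarnitine, was the other (0.69). Acacb, whose product makes the malonyl-CoA that inhibits the Cpt1a enzyme, was at 0.81 (unadjusted p = 0.0701), and Mlycd, which degrades malonyl-CoA, at 0.14 (unadjusted p = 0.503).

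Of 12 other genes listed with the cycle, not all of them enzymes of its steps, 5 were higher, with a median of 0.32. They were Acaa2 (0.51), Eci2 (0.64), Acad10, Acad11 and Hsd17b10. Eci2, an isomerase for unsaturated chains, had a wild-type mean of 122 ± 11.96 CPM (SD, n = 5) against 189.9 ± 5.97 CPM with the Het label (SD, n = 3). Decr1, the reductase for polyunsaturated chains, followed the pattern of Hadhb. It had 188, 343, 151, 364 and 469 CPM in wild type and 277, 295 and 337 CPM in het-labelled livers, so the het-labelled livers again lay between the 2 sets of wild-type livers. Its log2 fold change was 0.00 over all livers, 0.78 against wild-type livers 1 and 3 and −0.42 against 2, 4 and 5. Echs1, the short-chain hydratase (0.18), and Eci1, another isomerase (0.27), were not past the level.

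Electrons from the acyl-CoA dehydrogenases pass to the flavoprotein made of the Etfa and Etfb products and then to the Etfdh product. Etfdh was higher (0.43; unadjusted p = 0.0371), with 182, 202, 146, 224 and 206 CPM in wild type and 263, 228 and 285 CPM in het-labelled livers. Etfa had 208, 382, 161, 385 and 492 CPM in wild type and 302, 287 and 327 CPM in het-labelled livers, and the difference was −0.09 over all livers, 0.67 against wild-type livers 1 and 3 and −0.51 against 2, 4 and 5. Etfb lay at 0.22. All 3 were higher in each of wild-type livers 2, 4 and 5 than in 1 and 3, as were 8 of the 12 other genes listed with the cycle. Of all genes tested, 31.1% were.

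Of 5 ketone body genes 2 were higher and 1 lower, with a median of 0.38. Bdh1, which reduces acetoacetate, was among the higher ones (0.38; edgeR unadjusted p = 0.0428), and Oxct1, which uses ketone bodies outside hepatocytes, was lower (−0.87; unadjusted p = 0.0263). Of 9 genes of peroxisomal beta-oxidation 4 were higher, with a median of 0.51. Acaa1a, a peroxisomal thiolase, was at 0.62.

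Of 13 regulators 6 were higher and 0 lower, with a median of 0.49. Ppara, which encodes PPAR-alpha, had 493.2, 342, 388, 511 and 457 CPM in wild type and 859, 522 and 804 CPM in het-labelled livers, with no overlap (0.73; edgeR unadjusted p = 0.00899, adjusted p = 0.259). Creb3l3, a fasting-induced transcription factor of hepatocytes, was at 0.60. The co-activator Ppargc1a was at −0.24 (unadjusted p = 0.207). Pdk4 and Fgf21, known PPAR-alpha targets, were at 0.42 and 0.51 and not past the level (unadjusted p = 0.222 and 0.307), and for both het-labelled liver 3 alone lay above the wild-type range. Of 10 general mitochondrial genes 1 was higher, Cs, the citrate synthase gene (0.54), and the median was 0.19.

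**Figure D5:**
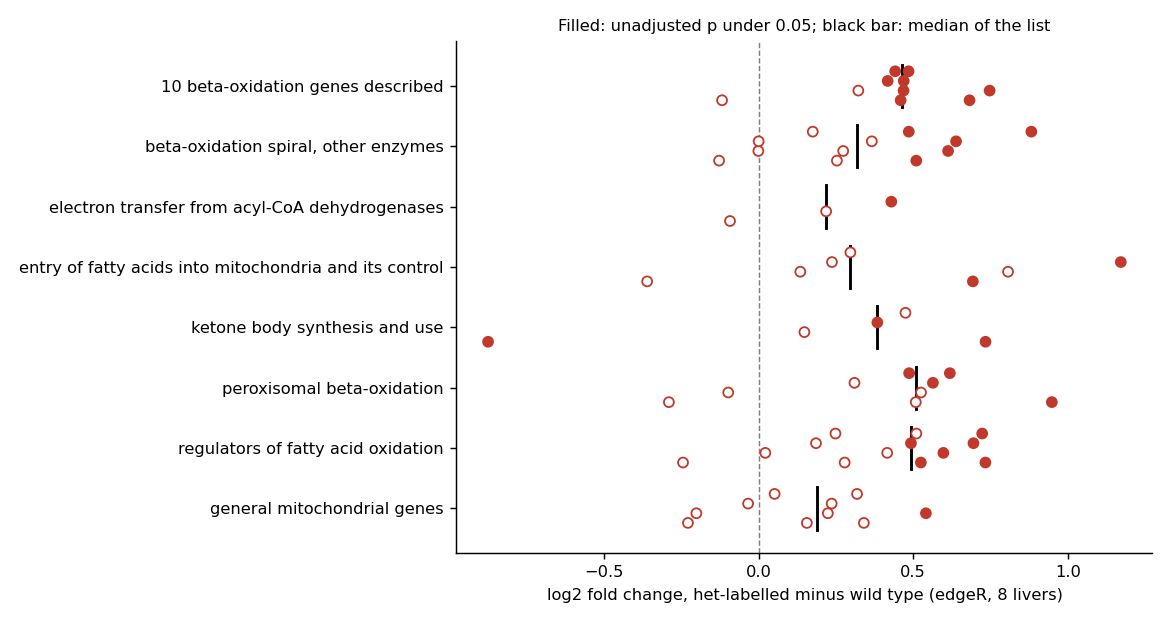
Log2 fold change, het-labelled minus wild type over 8 livers, of each tested gene (points) by list (lines of the plot), filled where the unadjusted edgeR p is under 0.05, with the list's median as a black bar. The medians run from 0.19 for general mitochondrial genes to 0.51 for peroxisomal beta-oxidation, and that of the 10 members is 0.46.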

How the data were processed

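Liver RNA of 8 mice was sequenced from KAPA mRNA HyperPrep libraries, per the labels' protocols. The submitters' processing notes name build mm10 and the tools STAR, HTSeq and bcl2fastq 2.18.0.12; annotation, counting mode and strand setting were not given in the sources used here. The authors deposited whole-number counts per gene and RPKM values. Each deposited RPKM equalled the count over exon length and 1 constant per library, which corresponds to 0.888 to 1.25 times the count total, so RPKM levels also carry that constant.

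Groups follow the genotype label. No litter or batch is named in the labels, so a p-value reflects only the spread among these samples, part of which may be technical. The members and the gene lists were chosen with earlier results of these data known. Named genes are the members, Midn and Rpph1, a fixed set of pathway genes, the genes of smallest p in each list and the 5 most like the members. Values of 2 genes that this rule names are not reported here.

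Counts were filtered with filterByExpr (minimum 10, total 15), scaled by TMM and tested over 14438 genes with edgeR 4.0.16 (quasi-likelihood, robust, two-sided, Benjamini-Hochberg adjustment at 0.05) in R 4.3.3. The edgeR, DESeq2 1.42.0 and limma-voom (limma 3.58.1) fits were tested on simulated data, and the limma fits on RPKM were not. The simulated counts held no split within wild type, and planted differences larger than those of the members. They thus cannot show how the fits handle the split among these wild-type livers. Ratios and shares of RPKM were tested by exact permutation, two-sided, over 56 assignments (scipy 1.17.1) and adjusted over 7 measures. Likeness used log2(CPM + 0.5). Alternatives were other scalings, DESeq2, limma-voom, limma on log2(RPKM + 0.1) and log2(RPKM + 1), no filter, no robust estimation, counts without Rn45s and Rpph1, each library left out, and each set of wild-type livers alone. Overlapping genes cannot be separated: Acadvl overlaps Mir324 (at most 0.384 CPM) and Hadhb overlaps Mir1960 (at most 1.13 CPM). Sequences are from RefSeq, and gene positions are those of the deposited tables (mm10). Figures were drawn with matplotlib 3.10.9.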

Additional observations from a re-analysis of the deposited data

How the results depend on the processing

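Of 190 values of single members under the alternatives, 185 kept their direction and stayed uncalled at an adjusted p under 0.05. The smallest adjusted p of a member in the main edgeR fit was 0.259, so this count does not cover the unadjusted level. Against wild-type livers 2, 4 and 5 alone, 3 passed the adjusted threshold (Cpt1a 0.88, Slc25a20 0.65, Acadl 0.44). The remaining 2 changed sign, both of Hadhb (−0.30 to 0.015 with a library left out, the latter without wild-type liver 5, and 0.46 against wild-type livers 1 and 3). The count of members higher at an unadjusted p under 0.05 was 1 with library size alone and 2 to 8 with a library left out; the median was 0.27 with library size alone, and the members' median minus that of all genes was then 0.45, against 0.46 with TMM. Against wild-type livers 2, 4 and 5 alone, 1 member was lower and 3 were called. With a library left out, the difference in share ran from −0.63 to 0.43 percentage points for Acadvl, −0.18 to 0.63 for Acadl and −0.79 to 0.48 for Acadm. Against wild-type livers 1 and 3 alone, 16.7% of all genes were higher at an unadjusted p under 0.05. By list these were 9 of the 12 other genes listed with the cycle, 3 of 3 of electron transfer and 1 of 7 of entry. They were also 4 of 5 ketone body genes, 3 of 9 peroxisomal genes, 4 of 13 regulators and 4 of 10 general mitochondrial genes. In these lists 0 genes were lower. Against wild-type livers 2, 4 and 5 alone, 18.8% of all genes were higher and 18.7% lower at that level. Higher were 3 of the 12 genes listed with the cycle, 3 of 7 entry genes, 0 of 3 electron transfer genes and 1 of 5 ketone body genes. Also higher were 3 of 9 peroxisomal genes, 5 of 13 regulators and 1 of 10 general mitochondrial genes. Lower were 1 of the 12, 0 of 7 entry genes, 1 of 3 electron transfer genes and 1 of 5 ketone body genes. Also lower were 1 of 9 peroxisomal genes, 1 of 13 regulators and 2 of 10 general mitochondrial genes. The causes were not tested. With 3 against 2 or 3 livers, these counts rest on few samples. No paired analysis was possible because the replicate numbers were given in accession order and the labels pair no livers.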

Other observations

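A few other pathway genes outside the rule for named genes, chosen after their values were seen, are described here. Hsd17b10, the 3-hydroxyacyl-CoA dehydrogenase type 2 of mitochondria, had 72.6, 82.7, 56.5, 94.3 and 98.01 CPM in wild-type livers 1 to 5 and 166, 88.3 and 192 CPM in het-labelled livers 1 to 3. Het-labelled livers 1 and 3 lay above all wild-type livers and liver 2 inside their range, with a log2 fold change of 0.88 (SE 0.27; edgeR unadjusted p = 0.00894, adjusted p = 0.259). Crot, the carnitine octanoyltransferase of peroxisomes, had 553, 1154, 503, 995 and 1043 CPM in wild type and 567, 784 and 734 CPM in het-labelled livers. The het-labelled livers again lay between wild-type livers 1 and 3 and wild-type livers 2, 4 and 5, as for Hadhb, Decr1 and Etfa. The Crot difference was −0.29 over all livers (edgeR adjusted p = 0.63), 0.34 against wild-type livers 1 and 3 (adjusted p = 0.311) and −0.66 against 2, 4 and 5 (adjusted p = 0.0467). Oxct1, the transferase that starts ketone body use, had 27.7, 48.2, 31.8, 30.7 and 43.9 CPM in wild type and 14.1, 32.2 and 13.4 CPM in het-labelled livers, where liver 2 lay inside the wild-type range.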
